A study of Mus musculus with 6 samples.

Results

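Toll-like receptors and their lipopolysaccharide co-receptor CD14 were examined at the transcript level in macrophages of the infarcted mouse heart. The 10 genes, picked by their symbols, were Tlr1, Tlr2, Tlr3, Tlr4, Tlr6, Tlr7, Tlr8, Tlr9, Tlr13 and Cd14, out of 54532 genes in the count table. All 10 passed the filter on low counts, which kept 14522 genes. The 6 libraries came from 3 ITGA5 fl/fl and 3 Myα5KO mice, both on a C57BL/6 background, 12 weeks old and 7 days after permanent occlusion of the left anterior descending coronary artery. Both groups carry the floxed gene of the integrin α5 chain. The Myα5KO mice also carry Cre recombinase in the lysozyme M locus, which is active in myeloid cells in general and not in macrophages alone, and the ITGA5 fl/fl littermates lack it. The effects of the Cre allele and of integrin loss therefore cannot be told apart here. Per the study's methods, each library came from 1 mouse's infarcted heart, from cells that lacked the neutrophil antigen Ly6G and carried CD11b, selected on magnetic columns.

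Toll-like receptors are innate sensors that recognise microbial products and molecules released by injured cells. TLR1, TLR2, TLR4 and TLR6 sit on the cell surface, where TLR2 pairs with TLR1 or TLR6 to bind lipoproteins and TLR4 binds lipopolysaccharide with its partner MD-2. CD14, a surface protein without a signalling domain, hands lipopolysaccharide and lipoproteins to these receptors. TLR3, TLR7, TLR8, TLR9 and TLR13 lie in endosomes and sense nucleic acids. All of them signal through the adaptor MyD88 except TLR3, which uses TRIF, and TLR4 uses both. In the infarcted heart, they are known to take part in the inflammatory reaction of leukocytes to debris of dying cells.

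The library labels were checked against the targeted gene. Itga5 averaged 607 ± 43.2 CPM (SD, n = 3) in ITGA5 fl/fl and 48.7 ± 1.48 (n = 3) in Myα5KO macrophages, which is 8.02% of the control level. CPM are the read counts of a gene relative to the size of its library, after scaling with TMM, a method that allows for differences in library composition. Lyz2, the lysozyme gene whose locus carries Cre, stood at 53.0% of control. Library totals ranged from 15424451 to 18419287 reads, and libraries of one group correlated at 0.990 to 0.992 with each other across genes, against 0.985 to 0.988 between groups. The macrophage markers summed to 12378 to 12642 CPM in ITGA5 fl/fl and 11703 to 12374 CPM in Myα5KO libraries. Of the 8 markers, Fcgr1 was called higher (log2 fold change 0.27, edgeR adjusted p = 0.0215), and Adgre1, Cd68, Csf1r, Mertk and the C1q genes were not called. Reads were amplified without molecular identifiers, so counting precision covers counting error only.

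Tlr1 and Tlr6 are neighbours on mouse chromosome 5, separated by 18467 bases, and they share sequence that bears on how their reads can be assigned. Tlr1 lies at chr5:64924679-64933563 and Tlr6 at chr5:64952031-64960097, both on the minus strand of GRCm38. Their longest identical stretch, 229 bases, is longer than the 150-base reads of these libraries. It lies within the coding sequence of both genes, at chr5:64925537-64925765 in Tlr1 (coding bases 1468 to 1696 of 2385) and chr5:64953828-64954056 in Tlr6 (coding bases 1507 to 1735 of 2418). It is shown because a read lying within it cannot be given to either gene by its sequence. No other pair of the 10 genes shares a run of 50 bases.
Tlr1 and Tlr6, shared coding stretch: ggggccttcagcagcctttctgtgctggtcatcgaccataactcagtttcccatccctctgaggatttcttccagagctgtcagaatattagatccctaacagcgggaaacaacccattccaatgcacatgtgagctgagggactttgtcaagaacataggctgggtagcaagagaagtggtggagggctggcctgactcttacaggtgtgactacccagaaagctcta
Of all 50-base words, 13.6% of those in Tlr1 and 12.3% of those in Tlr6 occurred in the other gene. How the counting treated reads with more than 1 match is not stated, so the counts of Tlr1 and Tlr6 are uncertain. Of words as long as a read, 150 bases, the genes shared 139. Tlr3 overlaps an antisense gene, Gm45542, at an exon, and without strand information their reads cannot be told apart.

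Cd14 and Tlr2 were by far the most abundant of the 10 transcripts. Levels are compared between genes as FPKM, read counts divided by gene length and library size, with the deposited scaling. In ITGA5 fl/fl macrophages, Cd14 averaged 3012 ± 106 FPKM and Tlr2 478 ± 21.9 (SD, n = 3). Tlr7 followed at 30.2 ± 1.59 FPKM, Tlr13 at 28.8 ± 1.70, Tlr8 at 22.6 ± 1.86, Tlr9 at 19.7 ± 2.55 and Tlr1 at 16.5 ± 0.696. The lowest were Tlr4 at 5.31 ± 0.281, Tlr6 at 3.92 ± 0.463 and Tlr3 at 2.11 ± 0.307 FPKM. Neighbours in this order did not overlap between libraries except for Tlr7 with Tlr13 and Tlr8 with Tlr9. The 10 genes fell into the same order in Myα5KO macrophages, where Tlr7 with Tlr13 and Tlr9 with Tlr1 overlapped.

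The test between genotypes called 4 of the 10 genes, in both directions. Cd14 and Tlr2 were lower in Myα5KO infarct macrophages, and Tlr1 and Tlr7 were higher. A gene was called changed where the quasi-likelihood test of edgeR gave a Benjamini-Hochberg adjusted p, over all 14522 tested genes, of 0.05 or less. Of all tested genes, 8.75% were called, with 3.56% higher and 5.19% lower, so the 2 genes called higher and the 2 called lower out of 10 compare with those shares. Among all genes called, 40.7% were higher, and this share moved to 70.1% when libraries were scaled by their total counts alone. In bulk RNA, fewer cells of a type and less RNA per cell cannot be told apart.

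**Figure D1:**
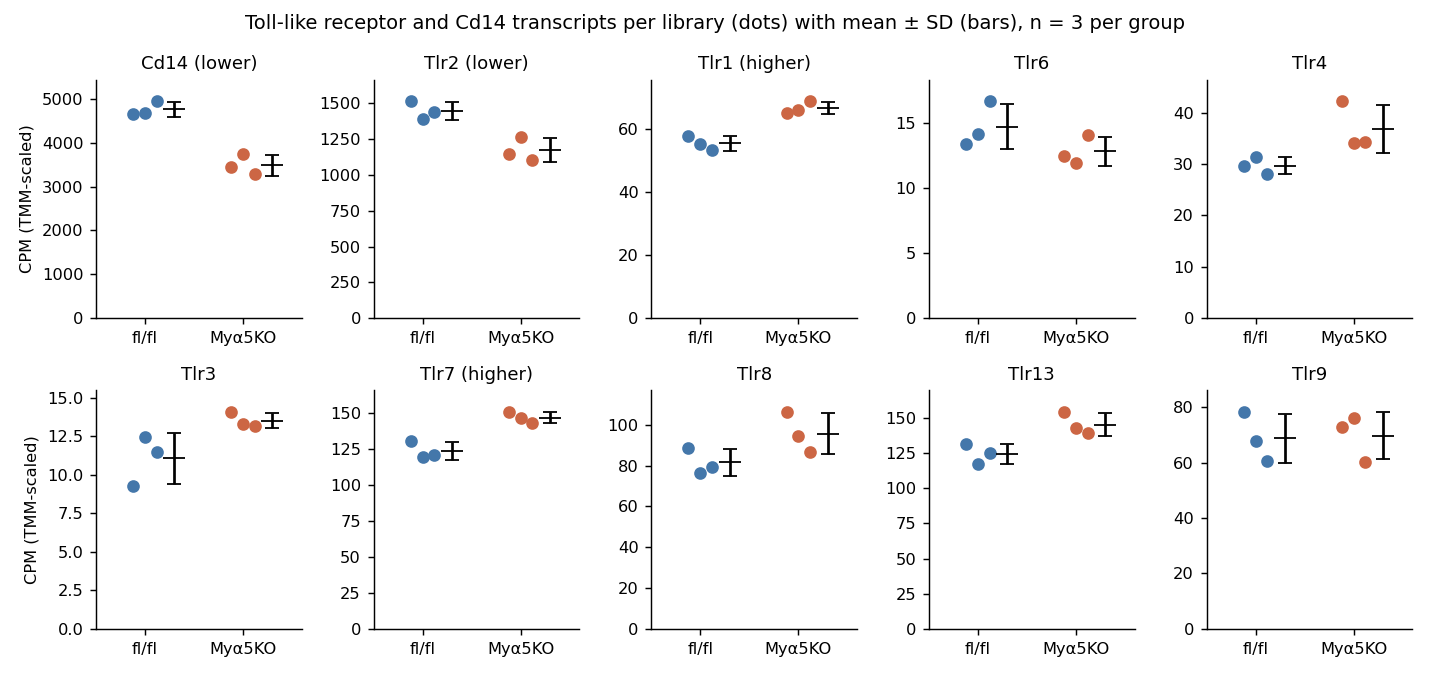
Transcript level of each gene in the 6 libraries, in TMM-scaled CPM on a linear axis from 0, with ITGA5 fl/fl in blue and Myα5KO in orange, and the mean ± SD of 3 libraries beside the dots. Cd14 (3280 to 3750 against 4650 to 4939 CPM) and Tlr2 lie lower in every Myα5KO library, and Tlr1 and Tlr7 lie higher.

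Cd14, on chromosome 18, changed most among the 10 genes. It stood at 4650, 4676 and 4939 CPM in the ITGA5 fl/fl libraries and at 3438, 3750 and 3280 CPM in the Myα5KO libraries. Each Myα5KO library was below each control library, and the highest Myα5KO library lay 19.4% below the lowest control library. The means were 4755 ± 160 and 3489 ± 239 CPM (SD, n = 3), which is 73.4% of control. The log2 fold change was -0.45 (SE 0.08, 95% interval -0.62 to -0.28, edgeR adjusted p = 0.00413).

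Tlr2, the most abundant of the receptors, at chr3:83836272-83841767, fell as well. The ITGA5 fl/fl libraries held 1513, 1390 and 1437 CPM and the Myα5KO libraries held 1149, 1265 and 1103 CPM. All Myα5KO values were below all control values. The mean went from 1446 ± 62.2 to 1172 ± 83.3 CPM, 81.1% of control, a log2 fold change of -0.30 (SE 0.08, 95% interval -0.47 to -0.14, edgeR adjusted p = 0.0256). The call was lost, with a log2 fold change of -0.33 to -0.27 and an adjusted p of 0.0552 to 0.0898, when ITGA5 fl/fl replicate 1, 2 or 3 or Myα5KO replicate 1 was left out. With scaling by library totals alone, the log2 fold change was -0.22 (adjusted p = 0.0608).

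Of the 2 partners of TLR2, Tlr1 was called higher and Tlr6 was not called. Tlr1 stood at 57.8, 55.1 and 53.2 CPM in ITGA5 fl/fl and at 65.0, 65.9 and 68.7 CPM in Myα5KO libraries. All Myα5KO libraries were higher. The means were 55.4 ± 2.30 and 66.5 ± 1.91 CPM (SD, n = 3), a log2 fold change of 0.27 (SE 0.07, 95% interval 0.13 to 0.41, edgeR adjusted p = 0.0233). The call was lost on leaving out ITGA5 fl/fl replicate 2 or 3 or Myα5KO replicate 2, where the adjusted p was 0.0900, 0.0987 and 0.0744, with log2 fold changes of 0.26, 0.24 and 0.27. Tlr6 stood at 13.3, 14.1 and 16.6 CPM against 12.5, 11.9 and 14.0 CPM, and the groups overlapped (log2 fold change -0.20, 95% interval -0.45 to 0.05, edgeR adjusted p = 0.327). The Tlr6 value was -0.10 without ITGA5 fl/fl replicate 3 and -0.12 with scaling by library totals alone.

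Tlr4, the lipopolysaccharide receptor, was not called. Its levels were 29.6, 31.3 and 28.0 CPM in ITGA5 fl/fl and 42.2, 34.0 and 34.2 CPM in Myα5KO macrophages, so the Myα5KO libraries all lay above the controls. The log2 fold change was 0.31 (SE 0.10, 95% interval 0.11 to 0.52, edgeR adjusted p = 0.0592). Leaving out Myα5KO replicate 3 gave an adjusted p of 0.0491 and a log2 fold change of 0.36, and leaving out Myα5KO replicate 1 gave 0.214 and 0.20. The ratio of Cd14 to Tlr4 FPKM was 556, 528 and 623 in the control libraries and 288, 390 and 339 in the Myα5KO libraries, with no overlap.

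**Figure D2:**
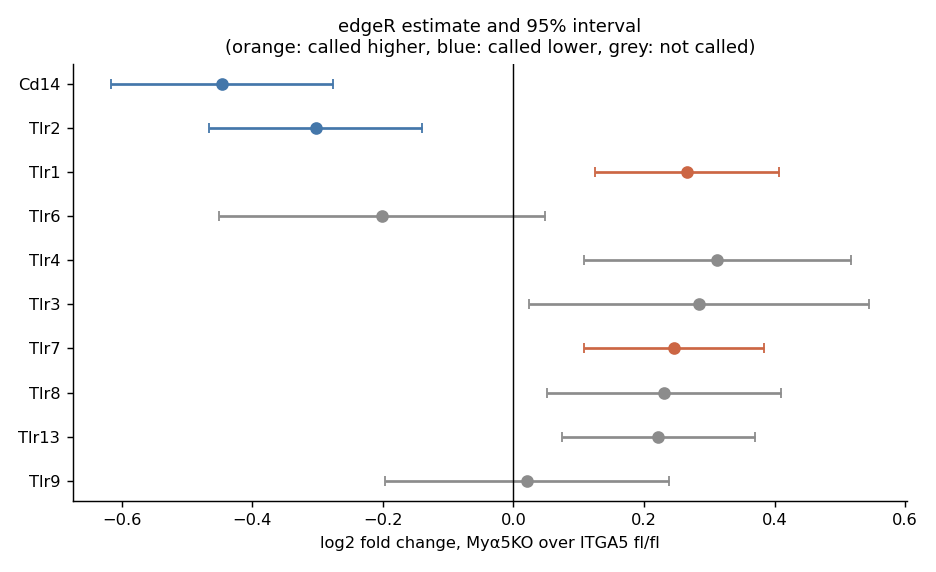
Log2 fold change of each gene, Myα5KO over ITGA5 fl/fl, with its 95% interval from edgeR (3 libraries per group). Cd14 at -0.45 and Tlr2 at -0.30 were called lower, Tlr1 at 0.27 and Tlr7 at 0.25 were called higher, and the other genes were not called.

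Among the endosomal receptors, Tlr7 was called higher. TLR7 senses single-stranded RNA, and its gene lies at chrX:167304929-167330558. The ITGA5 fl/fl libraries held 131, 119 and 121 CPM and the Myα5KO libraries 151, 146 and 143 CPM. The Myα5KO libraries lay above every control library. The means were 124 ± 6.22 and 147 ± 3.82 CPM (SD, n = 3), a log2 fold change of 0.25 (SE 0.06, 95% interval 0.11 to 0.38, edgeR adjusted p = 0.0301). It too lost the call on leaving out ITGA5 fl/fl replicate 2 or 3 or Myα5KO replicate 1 or 2, where the log2 fold change lay between 0.22 and 0.24 and the adjusted p between 0.0837 and 0.143.

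Tlr13, a sensor of bacterial ribosomal RNA, and Tlr8, which in the mouse lies 40599 bases from Tlr7 on the X chromosome, were not called. Tlr13 stood at 131, 117 and 125 CPM in ITGA5 fl/fl and 154, 142 and 139 CPM in Myα5KO macrophages. Its groups did not overlap (log2 fold change 0.22, 95% interval 0.07 to 0.37, edgeR adjusted p = 0.0616). Tlr8 stood at 88.8, 76.4 and 79.4 CPM against 106, 94.3 and 86.4 CPM, with overlap between groups (log2 fold change 0.23, 95% interval 0.05 to 0.41, edgeR adjusted p = 0.110). Without Myα5KO replicate 3, Tlr8 and Tlr13 passed the threshold, at adjusted p of 0.0392 and 0.0436, with log2 fold changes of 0.30 and 0.25. Without Myα5KO replicate 1, that of Tlr8 was 0.14 (adjusted p = 0.330).

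Tlr7, Tlr8 and Tlr13 are all on the X chromosome. Xist, which marks cells with more than 1 X chromosome, ranged from 815 to 981 CPM across the 6 libraries, and it was not called (log2 fold change -0.07). Of the 440 tested genes on the X chromosome, 10 were called higher (2.27%) and 9 lower (2.05%), with a median log2 fold change of 0.029. Across all tested genes the median was 0.015.

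The remaining endosomal receptors, Tlr3 and Tlr9, were not called. Tlr3, the sensor of double-stranded RNA, had 9.25, 12.5 and 11.4 CPM in ITGA5 fl/fl and 14.1, 13.3 and 13.1 CPM in Myα5KO libraries, with no overlap, and was not called (log2 fold change 0.28, 95% interval 0.02 to 0.54, edgeR adjusted p = 0.175). On leaving out ITGA5 fl/fl replicate 1, the Tlr3 log2 fold change was 0.17 (adjusted p = 0.447). Tlr9, the sensor of unmethylated CpG DNA, had 78.2, 67.6 and 60.6 against 72.8, 76.2 and 60.1 CPM, with overlap (log2 fold change 0.02, 95% interval -0.20 to 0.24, edgeR adjusted p = 0.931). The interval does not show that its level stayed the same. Of the 10 genes, 7 had groups that did not overlap, against 28.6% of all tested genes.

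**Figure D3:**
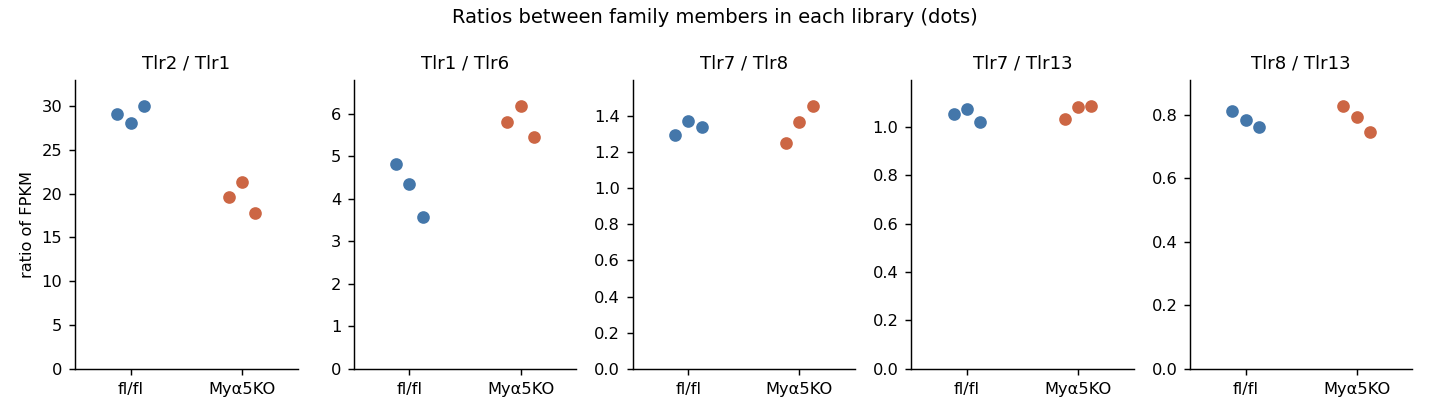
Ratios of FPKM between family members in each library, on linear axes from 0, with ITGA5 fl/fl in blue and Myα5KO in orange. Tlr2 over Tlr1 was 28.0 to 30.0 in the controls and 17.8 to 21.3 in the Myα5KO libraries, whereas Tlr7 over Tlr13 stayed between 1.02 and 1.09. Tlr2 over Tlr6, not drawn, overlapped between the groups.

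The composition of the receptor transcripts differed between the groups. Tlr1 was a small part of it, with 2.72% of the summed FPKM of the 9 receptors in the controls and 3.71% in the Myα5KO libraries. The ratio of Tlr2 to Tlr1 was 29.0 ± 0.991 in ITGA5 fl/fl and 19.6 ± 1.73 in Myα5KO macrophages (SD, n = 3), and the groups did not overlap. The ratio of Tlr1 to Tlr6 was 3.57 to 4.82 and 5.45 to 6.18. That of Tlr2 to Tlr6, its other partner, was 107 to 140 and 97.1 to 132, with overlap between groups. Tlr2 accounted for 78.7% ± 0.336 of the summed FPKM of the 9 receptors in the controls and 72.3% ± 1.46 in the Myα5KO libraries. The endosomal receptors accounted for 17.0% ± 0.384 and 22.1% ± 1.20, whereas their summed FPKM, 98.7 to 111 against 109 to 126, overlapped between groups. These ratios come from the same counts as the fold changes and are given as a description. Tlr7 and Tlr13 kept a ratio of 1.02 to 1.09 in all 6 libraries, Tlr7 and Tlr8 a ratio of 1.25 to 1.45, and Tlr8 and Tlr13 a ratio of 0.747 to 0.828.

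Sequence upstream of Tlr1 and Tlr2 is shown because these partner receptors moved in opposite directions. Promoter windows, from RefSeq on GRCm38.p6, were listed for 7 of the 10 genes and not for Tlr4, Tlr7 or Cd14. They span 250 bases before and 50 after the start, and only bases before the first annotated exon are shown. Capitals mark matches, on either strand, to 4 binding elements: the core of interferon regulatory factors (AANNGAAA), PU.1 (GAGGAAGT), AP-1 (TGANTCA) and kappaB. The Tlr1 stretch lies at chr5:64933564-64933808 and the Tlr2 stretch at chr3:83841768-83841858, both on the minus strand.
Tlr1: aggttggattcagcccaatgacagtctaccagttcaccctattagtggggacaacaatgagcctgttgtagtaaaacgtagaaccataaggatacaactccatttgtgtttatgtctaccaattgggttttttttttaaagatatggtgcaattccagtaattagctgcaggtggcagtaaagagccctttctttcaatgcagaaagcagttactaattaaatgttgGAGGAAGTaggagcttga
Tlr2: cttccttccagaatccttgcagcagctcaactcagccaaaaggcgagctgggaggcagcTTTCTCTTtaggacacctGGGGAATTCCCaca
Distances are counted from the RefSeq start. The first annotated exon begins upstream of that start in both genes, so the stretches stop after 245 bases in Tlr1 and 91 in Tlr2. The Tlr1 stretch holds 1 PU.1 match, 23 bases before the start. The Tlr2 stretch holds an interferon regulatory factor core, 191 bases before the start, and 2 overlapping kappaB matches at 173 and 172 bases before it. These kappaB matches lie at the end of the stretch, close to the first annotated exon. Of all 32851 promoter windows, 3.2% held the PU.1 letters, 23.92% the interferon regulatory factor core, 7.81% the AP-1 letters and 8.46% a kappaB match. A match describes letters and does not show that a factor was bound there.

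The genes whose levels ran closest to those of the called members were found by the root mean square difference of mean-centred log2 CPM over the 6 libraries, among 9317 genes with a mean of at least 100 counts. For Cd14 these were Hsf2 (0.034), Prune1 (0.037) and Ttc19 (0.037). For Tlr2 they were Mapk6 (0.015), Rars (0.020) and Sbno2 (0.020). Tlr1 ran closest to Polrmt (0.011), Cpq (0.017) and Marf1 (0.022), and Tlr7 to Mxd4 (0.012), Snx13 (0.018) and Atp6v0a1 (0.022). Polrmt, Cpq and Snx13 were themselves not called (edgeR adjusted p = 0.155, 0.0595 and 0.0514). With so many genes and only 6 libraries, close matches can be found for most genes, and shared regulation was not tested.

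Genes that supply ligand to the receptors or carry them to endosomes were compared next, and 8.75% of all tested genes were called. Of 8 genes for ligand capture and co-receptors, 1 was called higher and 1 lower, with a median log2 fold change of 0.07. Cd180, a TLR4-related regulator, rose (0.28, edgeR adjusted p = 0.0447) and Lbp, the lipopolysaccharide-binding protein, fell (-0.93, adjusted p = 0.0122). Ly96, which encodes MD-2 (0.17), Ly86, the partner of CD180 (0.14), and Fcgr2b were not called. Of 17 trafficking and processing genes, Slc15a4 rose (0.38, adjusted p = 0.00281) and Slc15a3 fell (-0.45, adjusted p = 0.00283), both transporters of histidine and peptides in endolysosomes. The other 15 were not called, among them Unc93b1, the chaperone of endosomal receptors (-0.01), and Ctsb, a lysosomal protease. Lbp was no longer called without ITGA5 fl/fl replicate 2 or 3, nor was Cd180 without ITGA5 fl/fl replicate 2 or 3 or Myα5KO replicate 1 or 2, which left 0 calls in that direction. Cd180 also lost the call with limma-voom, with median-ratio scaling, with at least 10 counts required in every library and in both FPKM analyses, and Lbp in both FPKM analyses.

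The adaptors were not called changed. None of the 6 tested adaptors passed in edgeR, DESeq2 or limma-voom, and 0 had an unadjusted edgeR p under 0.05. Myd88 (0.12), Tirap (0.21), Ticam1, which encodes TRIF (-0.09), Ticam2 (0.06) and Pik3ap1 (0.03) were among them. Of 19 kinase and ubiquitin ligase genes, 4 fell and none rose in edgeR or DESeq2, and 3 had an unadjusted edgeR p under 0.05 in the higher direction. The 4 were Traf3 (-0.56), Ikbke (-0.47), Irak2 (-0.46), a kinase that acts downstream of MyD88, and Tbk1 (-0.27). The median of the list was -0.04, and of all tested genes 5.19% were called lower and 3.56% higher. With limma on log2(FPKM + 1), 2 genes of the list fell, and with scaling by library totals alone 2 rose.

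Inhibitors of the pathway went in both directions. Of 14, 5 fell and 2 rose, against 5.19% lower and 3.56% higher among all tested genes, with a list median of -0.12. Tnip1 (-0.68, edgeR adjusted p = 0.000129), Tnfaip3 (-0.34), which encodes the deubiquitinase A20, and Nfkbia (-0.32), which encodes the inhibitor IκBα, fell. The others that fell were Zc3h12a (-0.32) and Tollip (-0.28). Trim30a (0.41) and Dusp1 (0.27) rose, and Irak3 (0.04) was not called. The number that fell was 2 without ITGA5 fl/fl replicate 2 or 3 and 3 without Myα5KO replicate 1 or 2, and the number that rose was 1 without ITGA5 fl/fl replicate 1, 2 or 3 or Myα5KO replicate 2 or 3. With limma on log2(FPKM + 1), 2 fell, and with scaling by library totals alone 2 fell.

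**Figure D4:**
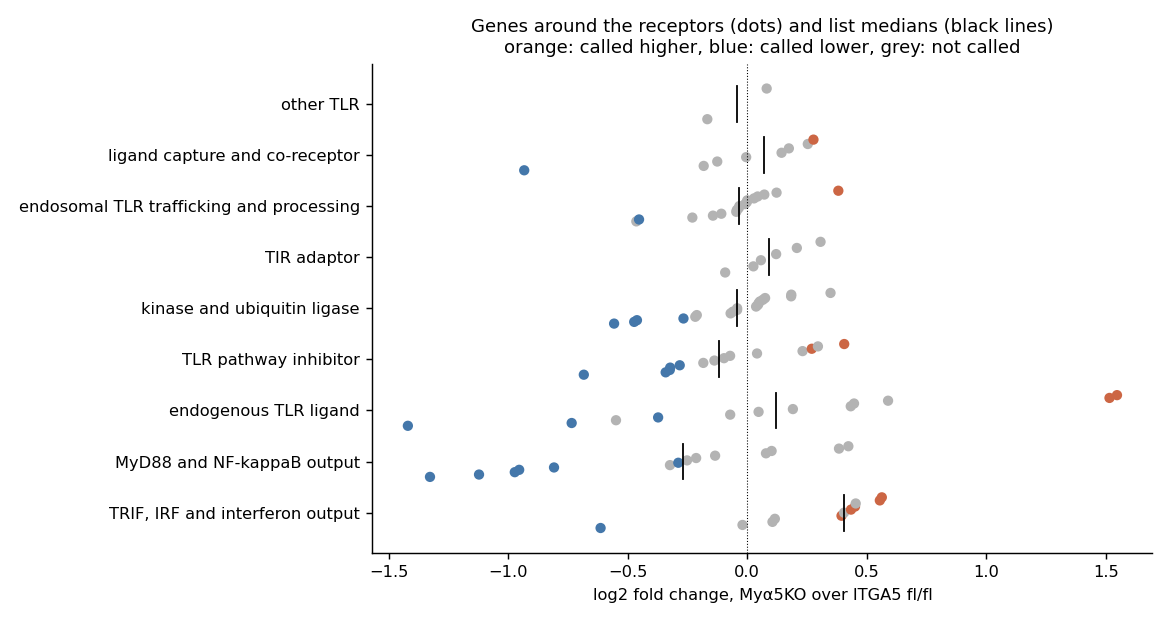
Log2 fold change, Myα5KO over ITGA5 fl/fl, of each tested gene in 9 lists around the receptors (dots), with list medians as black lines. The list named MyD88 and NF-kappaB output had a median of -0.27, and the list named TRIF, IRF and interferon output a median of 0.40.

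Target genes were described in lists whose names do not assign a gene to a single adaptor. Of all tested genes, 5.19% were called lower and 3.56% higher. Of 14 genes that are typical MyD88 and NF-kappaB outputs, 6 fell, with a list median of -0.27, and none rose in edgeR or DESeq2, 2 having an unadjusted edgeR p under 0.05 in the higher direction. Il1a (-1.33), Il10 (-1.12), Cxcl1 (-0.97) and Il6 (-0.95) fell most, and Cxcl2, the most abundant, fell by 0.81. Without Myα5KO replicate 1, 2 of them rose. Of 11 tested TRIF, IRF and interferon outputs, 5 rose and 1 fell, with a median of 0.40. Ifnb1, the remaining gene of that list, did not pass the filter on low counts. Ifit2 (0.56), Ifit3 (0.55), Irf7 (0.45), Mx1 (0.43) and Cxcl10 (0.39) rose, whereas Oasl1 (-0.61) fell. The number that rose was 3 without ITGA5 fl/fl replicate 1 or Myα5KO replicate 2, and 1 with limma on log2(FPKM + 1). These lists were chosen with results known and their difference was not tested.

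Endogenous ligands of the receptors moved in both directions. Of 12, 2 rose and 3 fell, against 3.56% higher and 5.19% lower among all tested genes, with a list median of 0.12. S100a9 (1.55) and S100a8 (1.51), alarmins that bind TLR4, rose, and Saa3 (-1.42), Fn1 (-0.73), the fibronectin gene, and Bgn (-0.37) fell. S100a8 and S100a9 are also neutrophil and monocyte genes. The number that rose was 1 without ITGA5 fl/fl replicate 2 and 4 without Myα5KO replicate 1. With limma on log2(FPKM + 1), none of the list was called in either direction. Of the remaining receptors in the mouse, Tlr5 (-0.17) and Tlr12 were tested and not called, and Tlr11 did not pass the filter.

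Marker sums of other cells were higher in Myα5KO libraries for some lists, lower for others, and overlapped between the groups for the rest. The neutrophil marker sum ranged from 192 to 235 CPM in ITGA5 fl/fl and from 262 to 387 CPM in Myα5KO libraries. Csf3r held most of its mean (155 and 169 CPM) and was not called (log2 fold change 0.13). Of 10 tested markers, 7 were called higher, among them Camp, Ngp and Ltf, against 3.56% of all tested genes. Log2 fold changes were positive for 9 of the 10, and Retnlg had -0.65 (not called). The defining markers Ly6g (0.02 and 0.05 CPM) and Cxcr2 (0.45 and 0.39 CPM) were near 0 in both groups. The monocyte sum was 305 to 353 against 447 to 483 CPM, with 3 of 7 markers, Ly6c2, Ccr2 and Spn, called higher. The B-cell sum was 74.9 to 118 against 116 to 189 CPM, and that of T and NK cells 30.6 to 32.7 against 36.8 to 39.7 CPM. Cd4 held most of the T and NK sum (means 19.3 and 20.9 CPM), and Cd3d, Cd3e and Cd3g were near 0 and not tested. All 4 tested markers of that list had positive log2 fold changes, and none was called. Conventional dendritic cell markers summed to 99.0 to 126 against 118 to 132 CPM, those of plasmacytoid dendritic cells, mostly Tcf4, to 194 to 217 against 172 to 186 CPM, and those of endothelial cells to 283 to 324 against 311 to 345 CPM. The fibroblast sum was 1620 to 1899 against 1211 to 1579 CPM, and the cardiomyocyte sum 18.8 to 21.3 against 12.3 to 16.1 CPM. In an exact permutation test with 3 libraries per group, the smallest p a sum can reach is 0.1, and adjusted over the lists it was 0.143 to 0.500. The part of these cells in the levels of the Toll-like receptors and Cd14 was not tested.

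The calls of Tlr1, Tlr2 and Tlr7 also depended on the values tested. With limma on log2(FPKM + 1), the adjusted p was 0.0503 for Tlr1, 0.0635 for Tlr2 and 0.0691 for Tlr7, and Cd14 was still called (adjusted p = 0.0286).

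**Figure D5:**
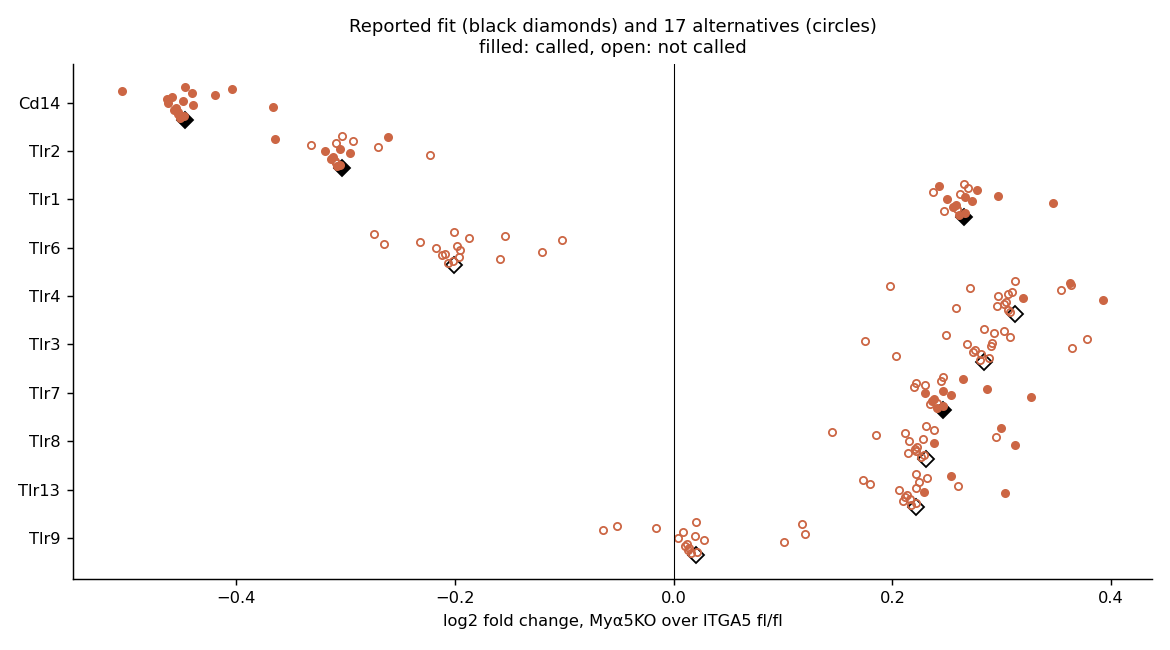
Log2 fold change of each gene in the reported edgeR fit (black diamonds) and in 17 alternative analyses (circles), filled where the gene was called. Cd14 was called in all of them, whereas Tlr1, Tlr2 and Tlr7 lost the call in 6, 8 and 7.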

How the data were processed

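Ly6G- CD11b+ macrophages of 7-day infarcts were profiled in 6 RNA-seq libraries, 3 per group, as given by the sample titles. The authors aligned 150-base paired-end reads to GRCm38 with TopHat2 2.0.9 and deposited counts per gene from HTSeq 0.6.1. How strand and multiply mapped reads were handled is not given in the sources used here. The deposited FPKM equal the count over gene length times a constant per library, within 0.1% for 100% of genes with 10 or more counts.

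Counts were analysed with edgeR 4.0.16 in R 4.3.3 by the quasi-likelihood test, without covariates, on all 14522 genes past the default filter (minimum count 10, minimum total count 15), scaled by TMM. P-values are two-sided and Benjamini-Hochberg adjusted over all tested genes. Log2 fold changes set Myα5KO against ITGA5 fl/fl and carry 95% intervals. The fit was run on simulated counts with known changes, whose spread edgeR had estimated from these same libraries. That checks the code and does not show how well calls hold with 3 mice per group. Marker sums were compared by an exact permutation test. A single marker of the monocyte list is not reported here and was left out of its sum. Alternatives were DESeq2 1.42.0, limma 3.58.1 (voom, and log2(FPKM + 1) and log2(FPKM + 0.1) after an FPKM filter of 1 in 3 libraries), 3 scalings, 2 filters, a replicate block, an adjusted p of 0.01 and leaving out each library. Genes named were the 10 members, fixed pathway genes, up to 4 called genes and the gene of highest mean CPM per list, and the 3 nearest genes of each called member. Zc3h12a, Tollip, Dusp1, Mx1, Cxcl10 and Bgn were named after their values were seen. The members and lists were chosen with earlier results of these data known. Replicates are hearts of individual mice. Library totals were 15424451 to 18419287 reads, and libraries of 1 group differed by more than counting error (chi-square per degree of freedom of at least 5.15).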

Additional observations from a re-analysis of the deposited data

How the results depend on the processing

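Cd14 was called lower in all 17 alternatives, with a log2 fold change of -0.50 to -0.37. The number of members called higher, 2 in the reported fit, was 0 with limma on log2(FPKM + 1) and on log2(FPKM + 0.1) (4 of them at an unadjusted p under 0.05 in each), 5 with library size only, 5 with no count filter, 0 at an adjusted p of 0.01, and 0 to 5 when 1 library was left out. The number called lower, 2, was 1 with either FPKM analysis, 1 with library size only, 1 at an adjusted p of 0.01, and 1 to 2 when 1 library was left out. Over all tested genes, 1271 calls became 472 and 448 with the FPKM analyses, 470 at an adjusted p of 0.01 and 616 to 1091 when 1 library was left out. Tlr9 changed sign without ITGA5 fl/fl replicate 3 (-0.065), Myα5KO replicate 1 (-0.016) or Myα5KO replicate 2 (-0.052), and was never called, with a range of -0.065 to 0.12 when 1 library was left out. Tlr4, Tlr8 and Tlr13 were called with library size only, with no count filter and without Myα5KO replicate 3. Counts in the 9 gene lists stayed within 1.5 times in 246 of 306 comparisons, moved down in 52 and up in 8. The causes were not tested.

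Same-numbered libraries did not deviate together (correlations 0.051, -0.058 and 0.043), so the numbers were not taken as pairs. With the number as a replicate block, 1181 genes were called and no member's call changed. The number of libraries per group limits these calls, and the lowest count of a member in a library was 138.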
